A study of Mus musculus with 12 samples.

Results

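The JAK kinases and STAT factors were followed as 9 genes: the STAT genes Stat2, Stat3, Stat4, Stat5a, Stat5b and Stat6 and the kinase genes Jak1, Jak2 and Tyk2. They were chosen by name, and each of the 9 was found among the 24421 gene symbols of the count table. All 9 passed the filter on low counts and were among the 11468 genes tested. The cells were bone marrow-derived macrophages (BMDMs) of wild-type C57BL/6 mice, grown for 5 days in 100 ng/mL M-CSF, the growth factor that drives marrow cells to become macrophages, with a change of medium on day 3. The 12 libraries formed 4 groups of 3. The animals, mice A, B and C, were the same in each group, and every animal was represented once per group. In the DMSO Ova group, cells received the solvent DMSO and soluble ovalbumin (Ova) for 4 hours. The labels give 5% DMSO, which the study's methods state for the solution injected into mice. For culture the methods have a DMSO stock of the drug diluted, so the share of DMSO on the cells is uncertain. The iBET Ova group received ovalbumin with I-BET151 (iBET) at 5.0 µM, a compound that blocks the bromodomains by which BET proteins hold on to acetylated chromatin. The DMSO IC and iBET IC groups received the same solvent or drug with ovalbumin in an immune complex (IC) with IgG, which engages Fc gamma receptors. Labels and methods name the drug I-BET151, whereas another passage of the study gives it the code of a different BET inhibitor. They also differ on whether the drug was given with the stimulus or shortly before it, and the study used mice of both sexes, with the age of the marrow donors and the sex of each animal not given in the sources used here.

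JAK kinases are held on the inner ends of cytokine receptors. When a cytokine brings receptor chains together, the kinases phosphorylate each other and the receptor, STAT proteins dock there and are phosphorylated in turn, and STAT dimers move to the nucleus and bind DNA. Stat2 works with the DNA-binding partner Irf9 in ISGF3, the complex of type I interferon signalling, whose site is the ISRE. Stat3 carries signals of the IL-6 and IL-10 families, Stat4 those of IL-12, Stat5a and Stat5b those of GM-CSF and related cytokines, and Stat6 those of IL-4 and IL-13. Jak1 and Tyk2 serve interferon and IL-10 family receptors, and Jak2 serves receptors of the GM-CSF family and others. Much of this system is set by phosphorylation, which RNA counts do not measure. In RNA from a whole culture, fewer cells that express a gene and less RNA of it per cell cannot be told apart.

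The 4 promoter windows printed here belong to Stat2 and Stat3, which rose most with iBET, and to Stat6 and Stat4, which fell. Each is the 300-base stretch from 250 bases before to 50 after a RefSeq transcript start on GRCm38.p6. The sequences are RefSeq's, matched by symbol. All 9 genes had a window in the table, 6 of them 1 window and 3 of them 2, which gave 12 windows. Capitals mark the ISRE core, a pair of GAAA runs with any 2 bases between them, searched on both strands. The Stat4 window is the second of its 2.
Stat2 (chr10:128270248-128270547, plus strand): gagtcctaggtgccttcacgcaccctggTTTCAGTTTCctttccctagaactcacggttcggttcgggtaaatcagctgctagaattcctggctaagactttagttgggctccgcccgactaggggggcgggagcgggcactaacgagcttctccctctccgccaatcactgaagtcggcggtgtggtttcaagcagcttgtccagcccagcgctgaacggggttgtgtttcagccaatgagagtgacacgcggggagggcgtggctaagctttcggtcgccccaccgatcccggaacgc
Stat3 (chr11:100939491-100939790, minus strand): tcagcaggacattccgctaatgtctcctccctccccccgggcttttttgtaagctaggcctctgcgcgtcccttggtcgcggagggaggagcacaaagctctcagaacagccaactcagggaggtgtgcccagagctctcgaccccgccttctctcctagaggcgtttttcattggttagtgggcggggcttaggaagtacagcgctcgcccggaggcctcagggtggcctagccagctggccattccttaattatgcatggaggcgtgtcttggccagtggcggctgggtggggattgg
Stat6 (chr10:127642736-127643035, plus strand): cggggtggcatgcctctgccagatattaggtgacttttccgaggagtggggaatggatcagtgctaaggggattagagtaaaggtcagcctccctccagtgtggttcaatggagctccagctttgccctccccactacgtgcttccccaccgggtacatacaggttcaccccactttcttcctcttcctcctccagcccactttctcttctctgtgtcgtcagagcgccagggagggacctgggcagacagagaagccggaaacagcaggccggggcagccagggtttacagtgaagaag
Stat4 (chr1:52007990-52008289, plus strand): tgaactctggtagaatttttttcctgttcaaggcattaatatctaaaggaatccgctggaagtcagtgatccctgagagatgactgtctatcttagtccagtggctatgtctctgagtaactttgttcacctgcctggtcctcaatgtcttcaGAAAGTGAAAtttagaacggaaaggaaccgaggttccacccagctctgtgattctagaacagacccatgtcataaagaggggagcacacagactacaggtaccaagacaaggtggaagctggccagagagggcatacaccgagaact
The Stat2 window held an ISRE core on the opposite strand at position -222 from the start, and the Stat4 window held one on its own strand at position -97. None of the other 10 windows of the 9 genes held this core, against 3.44% of all 32851 windows with one. The GAS core TTCNNNGAA, the palindrome bound by STAT dimers, was in 0 of the 12 windows and in 8.3% of all windows. The windows printed for Stat2 and Stat3 held 22 and 15 CpG dinucleotides, that of Stat6 held 8 and that of Stat4 held 4, and the median over all windows was 7. Of the windows not printed, the first of Stat4 held 2, those of Stat5a 5 and 27, and those of Stat5b 50 and 7. Those of Jak1, Jak2 and Tyk2 held 29, 44 and 23. Both motifs are short, and a match describes letters in the window and not a bound site.

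Total counts per library ranged from 7.55 M to 17.4 M. The DMSO Ova library of mouse A stood apart. The ribosomal precursor Rn45s took 77.4% of its counts against 1.41% to 7.83% in the other 11, so only 1.77 M counts and 1664 counts on the 9 genes remained there, against 7457 to 17478 in the others. Calls among the 9 genes that ended without this library are named beside them, while the levels, shares and ratios of DMSO Ova include it. The 10 macrophage markers were present in every group, with a summed level of 11690 to 13106 CPM in DMSO Ova, 12356 to 14945 in iBET Ova, 11615 to 12849 in DMSO IC and 13955 to 15089 in iBET IC. The summed markers of T and NK cells stayed at 0.97 CPM or lower in every library, with Nkg7 and Gzma at 0 throughout. Those of B cells reached at most 1.33 CPM, with Pax5 at 0 throughout, and the 4 mast cell and basophil markers were at 0 in every library. Markers of granulocyte precursors summed to between 7.70 and 50.7 CPM, with wide overlap between the groups. The 3 erythroid markers reached 0.514 CPM at most and the 4 stromal markers 1.54. Dendritic cell markers were low, with overlapping sums of 0.514 to 0.746 CPM in DMSO Ova and 0.677 to 1.39 in iBET Ova. In IC they summed to 0.667 to 1.18 CPM with DMSO and 1.20 to 1.55 with iBET. The higher sums with iBET came mostly from Zbtb46, with 1, 1 and 0 counts in DMSO Ova and 13, 11 and 4 in iBET Ova. In IC it had 5, 5 and 2 counts with DMSO and 17, 11 and 8 with iBET. No other marker of this list exceeded 6 counts in a library, and Flt3, Xcr1 and Siglech did not rise in Ova. The part of the dendritic cell markers, and that of the higher macrophage sum, in the results below was not tested.

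Levels between genes were compared per kilobase of exon (RPKM, the TMM-normalised CPM divided by the summed exon length). In DMSO Ova, Stat6 was the most abundant of the 9, at 82.8 ± 3.13 RPKM (SD, n = 3), followed by Jak1 at 29.6 ± 1.51. Stat2 came next at 11.1 ± 0.214. Jak2, Stat5b and Stat3, at means of 9.07, 8.69 and 8.28 RPKM, overlapped in their ranges and had no order beyond their spread. Tyk2, at 4.77 ± 1.81, overlapped with Stat5a at 2.91 ± 0.424 only through mouse A's library, where Tyk2 was at 2.69 RPKM against 5.66 and 5.96 in the other 2. Stat4, the IL-12 effector best known from T and NK cells, was last at 0.852 ± 0.301 RPKM and rested on 5 to 56 counts per library. The same genes headed the order in every group: Stat6, then Jak1. In iBET Ova, Stat2 (19.9 RPKM), Stat3 (14.6), Jak2 (11.3), Stat5b (7.11), Tyk2 (5.98), Stat5a (4.22) and Stat4 (0.608) followed Stat6 and Jak1, with no overlap between neighbours. With iBET, Stat3 thus stood above Jak2 and Stat5b in the Ova cells. In DMSO IC the ranges of Jak2 (10.2 RPKM) and Stat2 (10.0) overlapped. In iBET IC those of Stat3 (14.3) and Jak2 (12.1) overlapped, as did those of Stat5b (6.69) and Tyk2 (5.69).

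**Figure D1:**
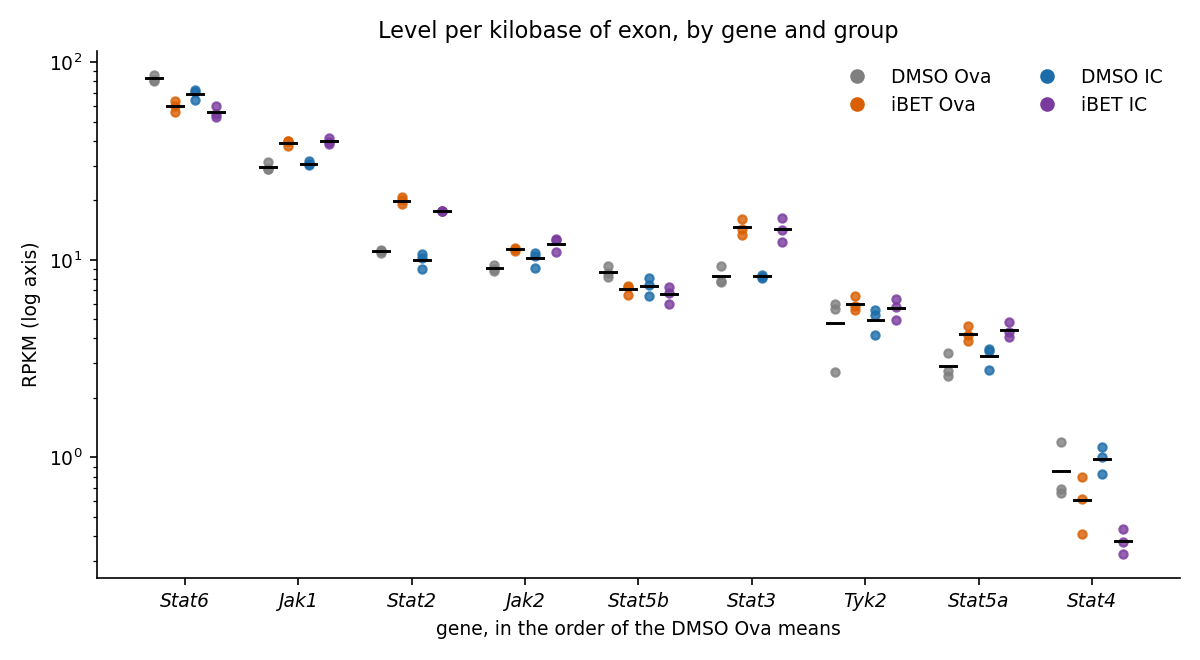
Level of each of the 9 genes in RPKM on a log axis, with 1 dot per library coloured by group and a black bar at the mean of 3 libraries. Stat6 and Jak1 stand above the other 7 genes in all 4 groups, Stat4 stands lowest, and the iBET dots of Stat2 and Stat3 lie above the DMSO dots.

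The comparison of iBET with DMSO asked how BET inhibition moved each JAK and STAT transcript, once in cells with soluble ovalbumin and once in cells with immune complexes. In Ova cells 6 of the 9 genes passed the test (edgeR quasi-likelihood test, Benjamini-Hochberg adjusted p under 0.05 over all genes tested). Stat2, Stat3, Stat5a, Jak1 and Jak2 rose and Stat6 fell. In IC cells 6 passed as well: Stat2, Stat3, Stat5a and Jak1 rose, and Stat4 and Stat6 fell. Many genes moved with the drug: 31.3% of all genes tested were called in Ova (17.1% higher, 14.2% lower) and 34.8% in IC (19% higher, 15.8% lower), and the median log2 change over all genes was 0.02 in Ova and -0.004 in IC. The median change of the 9 genes was 0.31 in Ova and 0.25 in IC. With mouse A's DMSO Ova library left out, 4 of the 9 were called in Ova and 6 in IC.

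**Figure D2:**
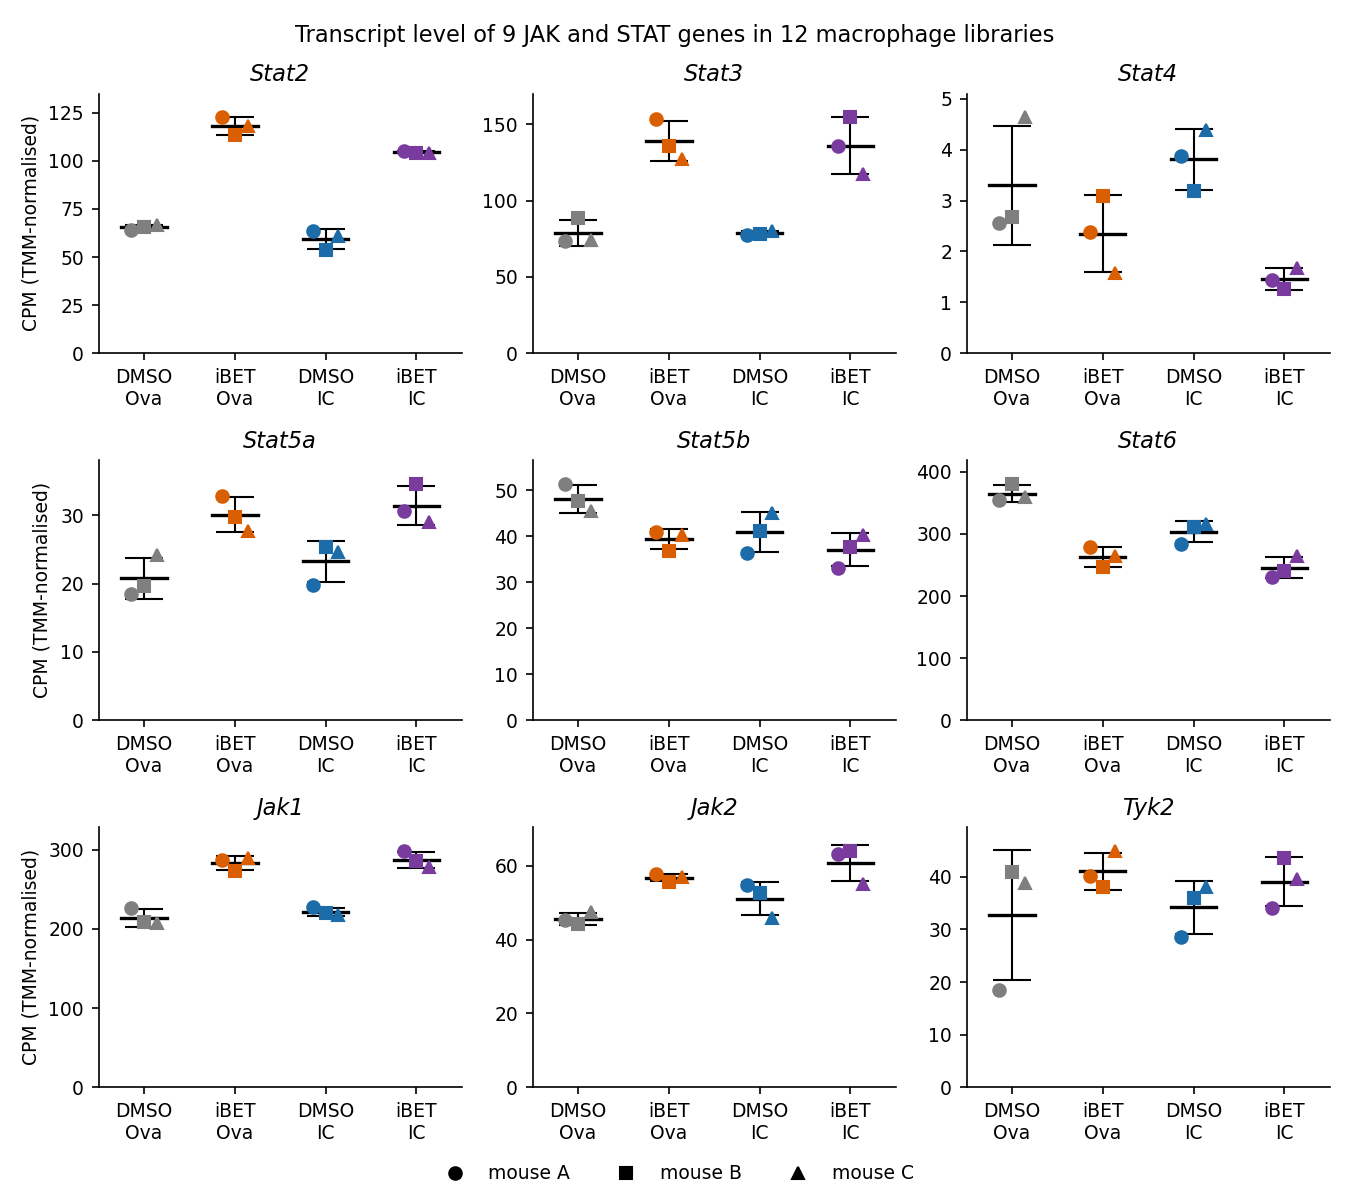
TMM-normalised CPM of the 9 genes in 12 libraries, with 1 symbol per mouse, the mean as a bar and the SD as whiskers (n = 3), on axes that start at 0. The iBET libraries of Stat2 and Stat3 lie above every DMSO library, those of Stat6 lie below every DMSO library, and the low Tyk2 point is the DMSO Ova library of mouse A.

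Stat2, the interferon-specific STAT, had 64.2, 65.6 and 66.7 CPM in the DMSO Ova libraries of mice A, B and C and 123, 113 and 118 CPM in the iBET Ova libraries. In DMSO IC it had 63.5, 53.5 and 60.8 CPM and in iBET IC 105, 104 and 104 CPM. The 6 iBET values all lay above the 6 DMSO values. The rise was 0.85 on the log2 scale in Ova (SE 0.09, 95% interval 0.66 to 1.04, adjusted p = 2.24e-05), or 1.80-fold, and 0.82 in IC (SE 0.09 with adjusted p = 2.33e-05), or 1.76-fold. It was seen in 3 of 3 mice under each stimulus and was called under all 25 alternative settings.

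Stat3, which mediates IL-10 signalling in macrophages, had 73.4, 88.8 and 74.4 CPM in DMSO Ova and 153, 136 and 127 CPM in iBET Ova. Under IC the values were 77.5, 78.1 and 79.9 CPM with DMSO and 136, 155 and 117 CPM with iBET. Here too the lowest iBET library was above the highest DMSO library. The log2 change was 0.81 in Ova (SE 0.12 with adjusted p = 0.000333) and 0.79 in IC (SE 0.12 with adjusted p = 0.000312), in 3 of 3 mice each, and the call held under all 25 alternatives. Stat3 lies on the minus strand of chromosome 11 (100885098 to 100939540 on GRCm38/mm10) and its 3′ end overlaps that of Stat5a, on the plus strand (100859351 to 100885169), by 72 bases. Of the 50-base windows of the Stat3 transcripts 0.236% had their opposite-strand copy in Stat5a. The use of strand in the counting is not stated, so reads from that stretch cannot be assigned with certainty to either gene.

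Stat5a had 18.5, 19.6 and 24.2 CPM in DMSO Ova against 32.9, 29.8 and 27.8 CPM in iBET Ova. In IC it had 19.9, 25.3 and 24.6 CPM with DMSO and 30.7, 34.6 and 29.0 CPM with iBET. The groups did not overlap under either stimulus, and the rise was 0.52 in Ova (SE 0.14 with adjusted p = 0.0159) and 0.44 in IC (SE 0.14 with adjusted p = 0.0277), in 3 of 3 mice each. In Ova, leaving out the DMSO Ova library of mouse A or B ended the call (0.0664 and 0.0691 as adjusted p), as did leaving out the iBET Ova library of mouse A (0.0636), all of mouse A (0.0685) or all of mouse B (0.178). The call in IC was lost in 3 of the 12 fits that left out 1 library (the DMSO IC library of mouse A, with adjusted p = 0.128, and the iBET IC libraries of mice A and B) and in each of the 3 fits that left out a mouse. It was also lost with the compared groups alone (0.0550) and in limma on the deposited signal (0.0504).

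Stat5b lies 8.6 kb from Stat5a, and the 2 genes share stretches of identical sequence. The shared 50-base windows were 8.21% of those of Stat5a and 11.0% of those of Stat5b. Counting can therefore split reads between them, and their values are uncertain to that extent. Stat5b had 51.4, 47.6 and 45.4 CPM in DMSO Ova and 40.9, 36.8 and 40.4 CPM in iBET Ova, again without overlap, with a log2 difference of -0.28 (SE 0.11, 95% interval -0.53 to -0.03) that did not pass the test (adjusted p = 0.0785). In IC its values overlapped, at 36.4, 41.3 and 45.0 CPM with DMSO and 33.2, 37.7 and 40.3 CPM with iBET (difference -0.14, SE 0.11 with adjusted p = 0.341). The Stat5b difference in Ova was called with 1 surrogate variable (adjusted p = 0.0423) and after removal of mouse A's DMSO IC library (0.0392). The mean ratio of Stat5a to Stat5b per length was 0.338 in DMSO Ova and 0.595 in iBET Ova, and 0.441 in DMSO IC and 0.663 in iBET IC. The highest DMSO library was at 0.476 and the lowest iBET library at 0.534.

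Stat6, the effector of IL-4 and IL-13 and the most abundant of the 9, had 354, 380.3 and 359 CPM in DMSO Ova and 278, 246 and 264 CPM in iBET Ova. In DMSO IC it had 284, 311 and 316 CPM and in iBET IC 231, 241 and 264 CPM. It fell by 0.47 on the log2 scale in Ova (SE 0.09 with adjusted p = 0.00204) and by 0.31 in IC (SE 0.09 with adjusted p = 0.0200), in 3 of 3 mice each and without overlap of the groups. The call in Ova held without any single library and was lost without mouse B (adjusted p = 0.119). The call in IC was lost without the DMSO IC libraries of mouse B or C or the iBET IC libraries of mouse A (adjusted p = 0.0863) or B, and without mouse B (0.221) or mouse C (0.111), and with the compared groups alone (0.0526). The Stat6 exons overlap those of Nab2 on the other strand. Nab2, a corepressor of Egr transcription factors, held 27.7% as many counts as Stat6 and moved the other way, with log2 changes of 1.04 in Ova (adjusted p = 0.00117) and 0.91 in IC (adjusted p = 0.00200).

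Stat4 was the gene with the fewest counts. It had 2.57, 2.68 and 4.64 CPM in DMSO Ova (5, 35 and 56 counts) and 2.39, 3.09 and 1.58 CPM in iBET Ova (31, 28 and 14 counts), which overlapped. In DMSO IC it had 3.87, 3.19 and 4.38 CPM and in iBET IC 1.44, 1.26 and 1.68 CPM; these groups did not overlap. The fall of 1.39 on the log2 scale in IC passed the test (SE 0.31, 95% interval -2.06 to -0.72, adjusted p = 0.00409), whereas the difference of -0.56 in Ova did not (SE 0.31 with adjusted p = 0.196) and was 0.03 without mouse C. The call in IC held in the 12 fits without 1 library and the 3 without a mouse, and in each of the other 9 fits that tested Stat4. The test of the difference between the 2 stimuli gave -0.83 (SE 0.44, 95% interval -1.79 to 0.12, unadjusted p = 0.0807, adjusted p = 1.0), so a difference of the drug effect between Ova and IC was not shown. Stat4 stood at 1.26 CPM or more in every library, where the summed T and NK cell markers were at 0 to 0.97 CPM. Which cells the Stat4 counts came from was not tested. Its exons overlap those of the same-strand transcript Gm28177.

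Among the kinases, Jak1, which serves most cytokine receptors of macrophages, had 227, 208 and 207 CPM in DMSO Ova and 287, 274 and 289 CPM in iBET Ova. Under IC it had 228, 219.6 and 218 CPM with DMSO and 298, 286 and 278 CPM with iBET. All 6 iBET values were above all 6 DMSO values. The rise was 0.41 in Ova (SE 0.08 with adjusted p = 0.00251) and 0.37 in IC (SE 0.08 with adjusted p = 0.00354), or 1.33-fold and 1.3-fold, in 3 of 3 mice each. Both calls held in every fit without 1 library and were lost without mouse B (adjusted p = 0.0883 and 0.101) and without mouse C.

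Jak2, the kinase of GM-CSF receptors, had 45.2, 44.3 and 47.3 CPM in DMSO Ova and 57.7, 55.7 and 56.9 CPM in iBET Ova, and 54.7, 52.6 and 45.9 CPM in DMSO IC and 63.1, 64.0 and 55.1 CPM in iBET IC. It rose by 0.31 in Ova (SE 0.10 with adjusted p = 0.0298) in 3 of 3 mice. That call was lost in 5 of the 10 alternatives that kept all libraries (DESeq2 gave adjusted p = 0.0692), without any 1 of the 6 Ova libraries (highest adjusted p 0.0951, without mouse B's DMSO Ova library) and without any mouse. In IC the difference was 0.25 (SE 0.10, 95% interval 0.04 to 0.46, adjusted p = 0.0626), which was called with 1 surrogate variable (0.0235) and without mouse C's iBET IC library (0.0440). The lowest iBET IC library was just above the highest DMSO IC library.

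Tyk2, which pairs with Jak1 at the type I interferon receptor, had 18.5, 40.9 and 38.9 CPM in DMSO Ova and 40.1, 38.2 and 44.9 CPM in iBET Ova. Its low value came from the DMSO Ova library of mouse A, with 36 counts. In IC it had 28.5, 36.0 and 38.1 CPM with DMSO and 34.1, 43.5 and 39.7 CPM with iBET. The differences of 0.26 in Ova (SE 0.22 with adjusted p = 0.400) and 0.19 in IC (SE 0.21 with adjusted p = 0.522) did not pass the test. Without the library of 36 counts the Ova difference was -0.01. The interval of the IC difference, -0.28 to 0.66, leaves room for a rise as large as that of Jak1.

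**Figure D3:**
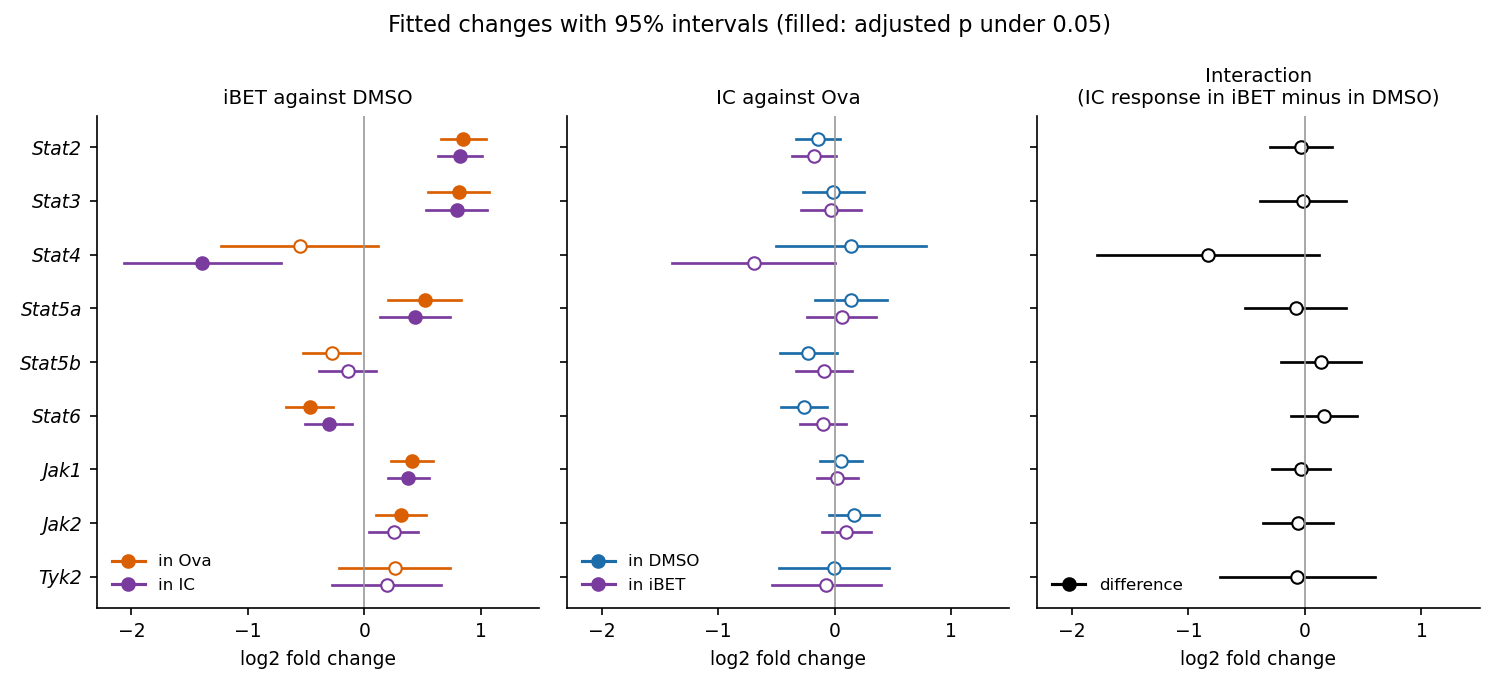
Log2 fold changes of the 9 genes with 95% intervals from the edgeR fit, for iBET against DMSO (left), IC against Ova (middle) and the interaction (right), with filled symbols for an adjusted p under 0.05. In the left panel 6 genes are filled under each stimulus, and in the other panels no symbol is filled.

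Since every library has its own scale, ratios of genes within a library were also taken. They do not depend on the scaling between libraries. The per-length ratio of Stat2 to Stat6 was 0.128 to 0.138 in DMSO Ova and 0.327 to 0.341 in iBET Ova, and 0.128 to 0.166 in DMSO IC and 0.293 to 0.337 in iBET IC. That of Stat3 to Stat6 had means of 0.0998 and 0.244 in the Ova groups and 0.120 and 0.258 in the IC groups. That of Jak1 to Stat6 had means of 0.358 and 0.657 in Ova and 0.446 and 0.717 in IC. No DMSO library reached an iBET library in any of these 3 ratios. This follows from the rises of Stat2, Stat3 and Jak1 and the fall of Stat6 in the same libraries and is not separate evidence. The ratio of Stat2 to Stat3, which rose together, had means of 1.34, 1.37, 1.21 and 1.25 in the Ova groups with DMSO and iBET and the IC groups with DMSO and iBET, and that of Jak1 to Jak2 had means of 3.27, 3.47, 3.03 and 3.30. Of the summed per-length level of the 6 STAT genes, Stat6 made up 72.3% in DMSO Ova and 56.3% in iBET Ova, and 69.8% and 56.2% under IC. Stat2 made up 9.65% and 18.8% in the Ova groups and 10.1% and 17.8% in the IC groups. Of the summed level of the 3 kinases, Jak1 made up between 67.0% and 69.4% in the means of the 4 groups.

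**Figure D4:**
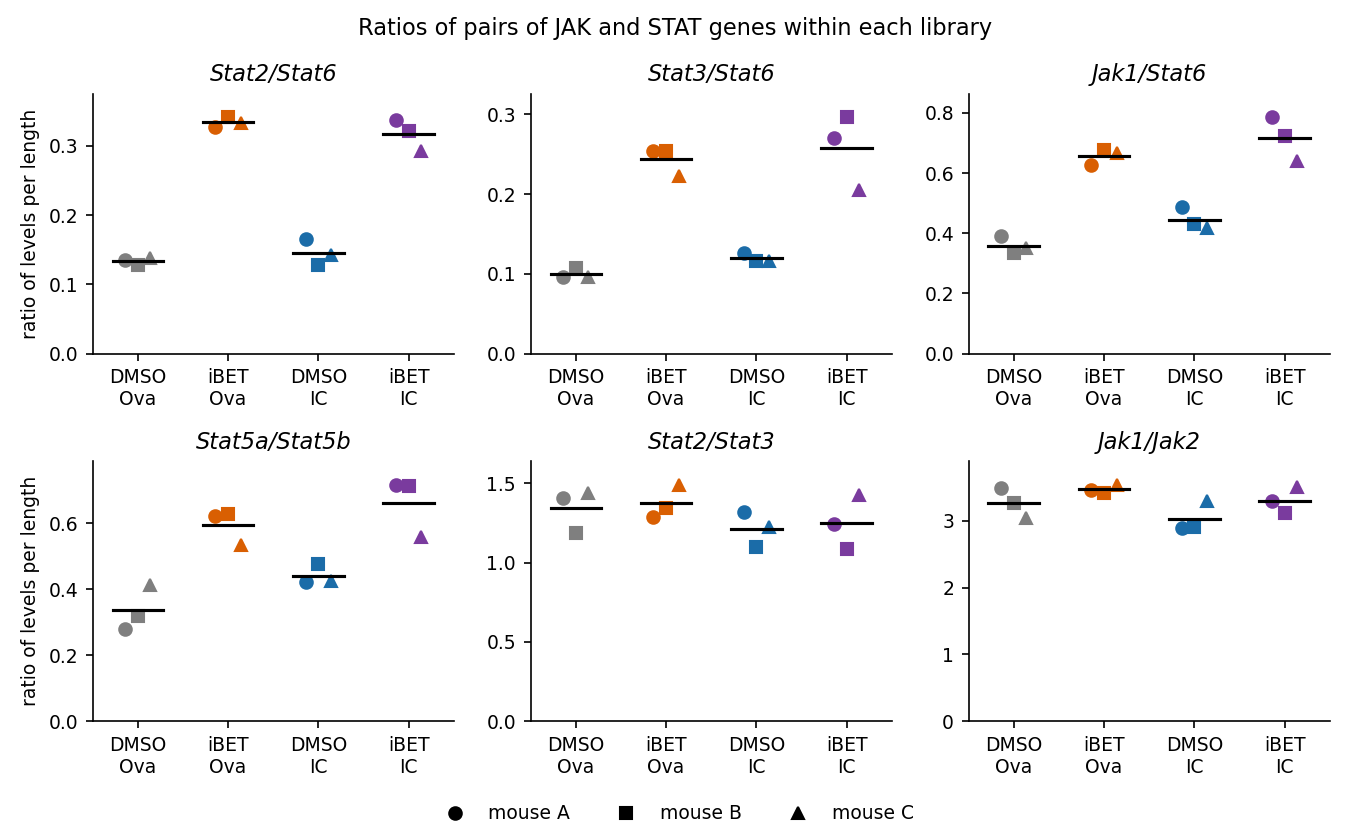
Ratio of the per-length levels of pairs of genes within each library, with 1 symbol per mouse and a bar at the mean of the 3 libraries of a group, on axes that start at 0. The iBET libraries lie above the DMSO libraries for Stat2, Stat3 and Jak1 over Stat6 and for Stat5a over Stat5b, while Stat2 over Stat3 and Jak1 over Jak2 overlap.

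The comparison of IC with Ova asked whether engagement of Fc gamma receptors moved these transcripts. None of the 9 genes was called in DMSO (edgeR, with 1 of them at an unadjusted p under 0.05), and none in iBET (0 at an unadjusted p under 0.05). DESeq2 also called 0 in each arm. Of all genes tested, 1.22% (140 genes) were called in DMSO and 0.349% (40 genes) in iBET. Without 1 library these counts ranged from 45 to 123 in DMSO and from 12 to 56 in iBET, the fewest being without mouse B's DMSO Ova and iBET Ova libraries respectively. Without mouse A, B or C edgeR called 159, 0 and 10 genes in DMSO and 305, 0 and 9 in iBET, with 600 and 289 at an unadjusted p under 0.05 where it called 0. The gene with the low unadjusted p was Stat6 in DMSO. Its values were 354, 380.3 and 359 CPM with Ova and 284, 311 and 316 CPM with IC, with no overlap and the lower value with IC in 3 of 3 mice (difference -0.26, SE 0.09, 95% interval -0.46 to -0.06, unadjusted p = 0.0136, adjusted p = 0.238). Without mouse A's DMSO Ova library it was -0.30 (adjusted p = 0.242). In iBET the Stat6 difference was -0.10 (SE 0.09 with adjusted p = 0.872). Stat5b in DMSO was also lower with IC in 3 of 3 mice, without overlap, at 51.4, 47.6 and 45.4 CPM with Ova and 36.4, 41.3 and 45.0 CPM with IC (difference -0.23, SE 0.11 with adjusted p = 0.482). Stat2 was lower with IC in 3 of 3 mice in each arm, at -0.15 in DMSO (SE 0.09 with adjusted p = 0.613) and -0.18 in iBET (SE 0.09 with adjusted p = 0.686), which did not pass the test. Stat3 differed by -0.01 in DMSO (95% interval -0.28 to 0.25) and -0.03 in iBET (95% interval -0.29 to 0.23), and Jak1 by 0.05 (-0.12 to 0.23) and 0.02 (-0.16 to 0.20).

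The interaction, which subtracts the IC response of DMSO cells from that of iBET cells, was called for 0 of the 9 genes and for 0 of all genes tested (0%, with 292 of them and none of the 9 at an unadjusted p under 0.05). DESeq2 called 4 genes and none of the 9. Apart from Stat4, the estimates for the 9 genes lay between -0.08 and 0.16. The intervals were narrowest for Jak1 (-0.28 to 0.22) and, apart from Stat4, widest for Tyk2 (-0.73 to 0.60).

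The genes around the 9 were taken from 3 lists: receptor chains that use JAK kinases, inhibitors and brakes of the pathway, and partners of JAK and STAT proteins. Of their 62 genes 51 were tested. With iBET, 12 rose and 13 fell in Ova cells and 12 rose and 11 fell in IC cells, so 25 and 23 of 51 were called (49% and 45.1%), against the 31.3% and 34.8% of all genes given above. With mouse A's DMSO Ova library left out, 12 rose and 11 fell in Ova. The median log2 change was -0.01 in Ova and -0.04 in IC. Without mouse B these counts were 4 higher and 4 lower in Ova and 6 and 6 in IC, of 50 tested.

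Among the 23 receptor chains tested, 2 rose and 5 fell in Ova, and 2 rose and 4 fell in IC. These shares of 30.4% and 26.1% were below those of all genes tested (31.3% and 34.8%). Lifr, the LIF receptor chain that signals through Jak1 and Stat3, rose from a mean of 16.1 to 46.0 CPM in Ova (log2 change 1.52, SE 0.11 with adjusted p = 1.78e-06) and, under IC, from 8.08 to 35.8 CPM (2.15, SE 0.11 with adjusted p = 1.21e-07). Il4ra, the receptor chain upstream of Stat6, rose by 0.69 and 0.79 (adjusted p = 0.00411 and 0.00122), while Stat6 fell. Il7r fell from 208 to 59.5 CPM in Ova and from 246 to 72.4 CPM in IC (-1.80 and -1.76, adjusted p = 8.3e-06 and 7.87e-06). Il21r fell by 1.63 and 1.55, and Il10rb, the shared chain of IL-10 family receptors, fell by 0.82 and 0.87. These calls held in all 12 fits without 1 library in both contrasts. Those of Il4ra and Il10rb in Ova were lost without mouse B (adjusted p = 0.0713 and 0.0536). The Il4ra and Il10rb exons overlap those of Gm44876 on the other strand and Gm21970 on the same strand.

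Among the 17 inhibitors tested, 6 rose and 4 fell in Ova, and 7 rose and 4 fell in IC (58.8% and 64.7% called). The shares over all genes tested were 31.3% and 34.8%. Socs7 rose by 0.98 and 0.91 (adjusted p = 0.000325 and 0.000346) and Sh2b3, the adaptor that restrains Jak2, by 0.76 and 0.92 (adjusted p = 6.73e-05 and 1.29e-05). Pias3, named for its binding of Stat3, rose by 0.59 and 0.65 (adjusted p = 0.0175 and 0.00837). Socs5 fell by 1.28 and 0.72 (adjusted p = 6.98e-06 and 0.000322), Usp18, which restrains the type I interferon receptor, by 0.93 and 0.77 (adjusted p = 0.00378 and 0.00892), and the phosphatase gene Ptpn6 by 0.87 and 1.12 (adjusted p = 0.0330 and 0.00880). In Ova the Pias3 call was lost in 2 of 12 fits without 1 library (highest adjusted p 0.0930, without mouse C's DMSO Ova library) and that of Ptpn6 in 5 (highest 0.0937, without mouse A's iBET Ova library). Without mouse B, the calls of Pias3, Usp18 and Ptpn6 in Ova and that of Usp18 in IC were lost (adjusted p = 0.163, 0.0683, 0.137 and 0.0707). Those of Pias3 and Ptpn6 in Ova and of Usp18 in IC each held in only 1 of the 3 fits without a mouse. The call of Pias3 in IC held in 1 of the 3 fits without a mouse (highest 0.0995, without mouse A). The exons of Pias3, Ptpn6, Sh2b3 and Usp18 overlap those of a gene on the other strand.

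Of the 11 partners tested, 4 rose and 4 fell in Ova and 3 rose and 3 fell in IC (72.7% and 54.5% called). Over all genes tested, 31.3% and 34.8% were called. Irf9, which carries Stat2 to DNA, fell from 81.1 to 55.6 CPM in Ova and from 77.9 to 56.0 CPM in IC (-0.55 and -0.47, SE 0.10 each, adjusted p = 0.00119 and 0.00251), in 3 of 3 mice each, while Stat2 rose. The Irf9 exons overlap those of Rnf31 on the same strand. Both calls held in the 12 fits without 1 library. In the 3 fits without a mouse they held in 1 and 2, and the highest adjusted p was without mouse B (0.0606 and 0.0913). Nmi, a STAT-binding protein, fell by 1.66 in Ova (SE 0.57 with adjusted p = 0.0460) and 2.58 in IC (SE 0.56 with adjusted p = 0.00430). In Ova that call held in 4 of the 12 fits without 1 library (highest adjusted p 0.130, without mouse A's iBET Ova library). The importin gene Kpnb1 fell by 0.36 and 0.46 (adjusted p = 0.0224 and 0.00480), the former call being lost in 3 of 12 fits (highest 0.106, without mouse C's DMSO Ova library). Pim1, a kinase gene that STAT factors induce, rose by 1.1 and 0.89 (adjusted p = 0.000158 and 0.000391). The adaptor genes Sh2b1 and Sh2b2 rose by 0.53 and 0.74 in Ova (adjusted p = 0.0144 and 0.0112), both calls being lost without mouse C's DMSO Ova library (0.0545 and 0.0555), and Sh2b1 rose by 0.61 in IC (adjusted p = 0.00478). Kpna1, the importin that carries STAT dimers, rose by 0.40 in Ova (SE 0.08 with adjusted p = 0.00362) and 0.39 in IC (SE 0.08 with adjusted p = 0.00321). In IC the Sh2b2 difference of 0.28 was not called (edgeR adjusted p = 0.249). Of the 3 fits without a mouse, 0 kept the call of Sh2b2 in Ova. Those of Kpnb1, Kpna1, Sh2b1 and Nmi in Ova were each kept in 1 of these 3 fits. In IC the call of Kpna1 was kept in 1, and those of Kpnb1 and Sh2b1 in 2.

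With IC against Ova, 3 of the 51 pathway genes were called in DMSO and 1 in iBET (5.88% and 1.96%, against 1.22% and 0.349% of all genes). Socs3, the feedback inhibitor of gp130 receptors, had means of 0.908, 7.65, 1.84 and 9.78 CPM in DMSO Ova, DMSO IC, iBET Ova and iBET IC, a rise of 2.64 in DMSO (SE 0.42 with adjusted p = 0.00827) and 2.43 in iBET (SE 0.37 with adjusted p = 0.0118). Lifr fell by 0.99 with IC in DMSO (SE 0.11 with adjusted p = 0.00142) and Pim1 rose by 0.74 (adjusted p = 0.0336). Each of these 4 calls was lost in 2 of the 3 fits without a mouse, with the highest adjusted p without mouse B (0.644 and 1 for Socs3 in DMSO and iBET, 0.285 for Lifr and 0.858 for Pim1). That of Pim1 held in 4 of the 12 fits without 1 library, that of Socs3 in 11 in DMSO (0.0863 without mouse B's DMSO Ova library) and 8 in iBET (0.0935 without mouse B's iBET Ova library), and that of Lifr in 12.

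Genes known as targets of the STAT factors were read beside the factors, from 4 lists. Of the 21 ISGF3 target genes, none rose and 10 fell with iBET in Ova, and none rose and 12 fell in IC, with list medians of -0.51 and -0.55 against 0.02 and -0.004 over all genes. The shares called were 47.6% and 57.1%, against 31.3% and 34.8% of all genes tested in either direction. Called lower were 14.2% of all genes tested in Ova and 15.8% in IC. With mouse as a block, 1 of the ISGF3 target genes rose and 12 fell in Ova, and 1 rose and 13 fell in IC. With 1 surrogate variable, or without mouse A, 1 also rose in Ova. Ifit3 fell from a mean of 101 to 18.5 CPM in Ova and from 105 to 15.5 CPM in IC (-2.42, SE 0.48 with adjusted p = 0.00308, and -2.73, SE 0.48 with adjusted p = 0.00125). Ifit1 fell by 1.6 and 1.65 (SE 0.18 each) and Oasl1 by 1.44 and 1.39 (SE 0.17 and 0.16). These 3 calls held without any single library and without any mouse. The Ifit genes and the Oasl genes have close relatives beside them, and counting could split reads between such copies. Among the ISGF3 target genes that did not pass the test under either stimulus were Irf7 at 442 and 631 CPM in DMSO Ova and iBET Ova (difference 0.52, SE 0.26 with adjusted p = 0.156) and Oas3 at 116 and 114 CPM (-0.03, SE 0.13 with adjusted p = 0.895). Without mouse B, 4 of the ISGF3 target genes fell in Ova and 6 in IC. The transcript of Stat2 was higher and that of Irf9 lower in the same libraries in which these target genes were lower.

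**Figure D5:**
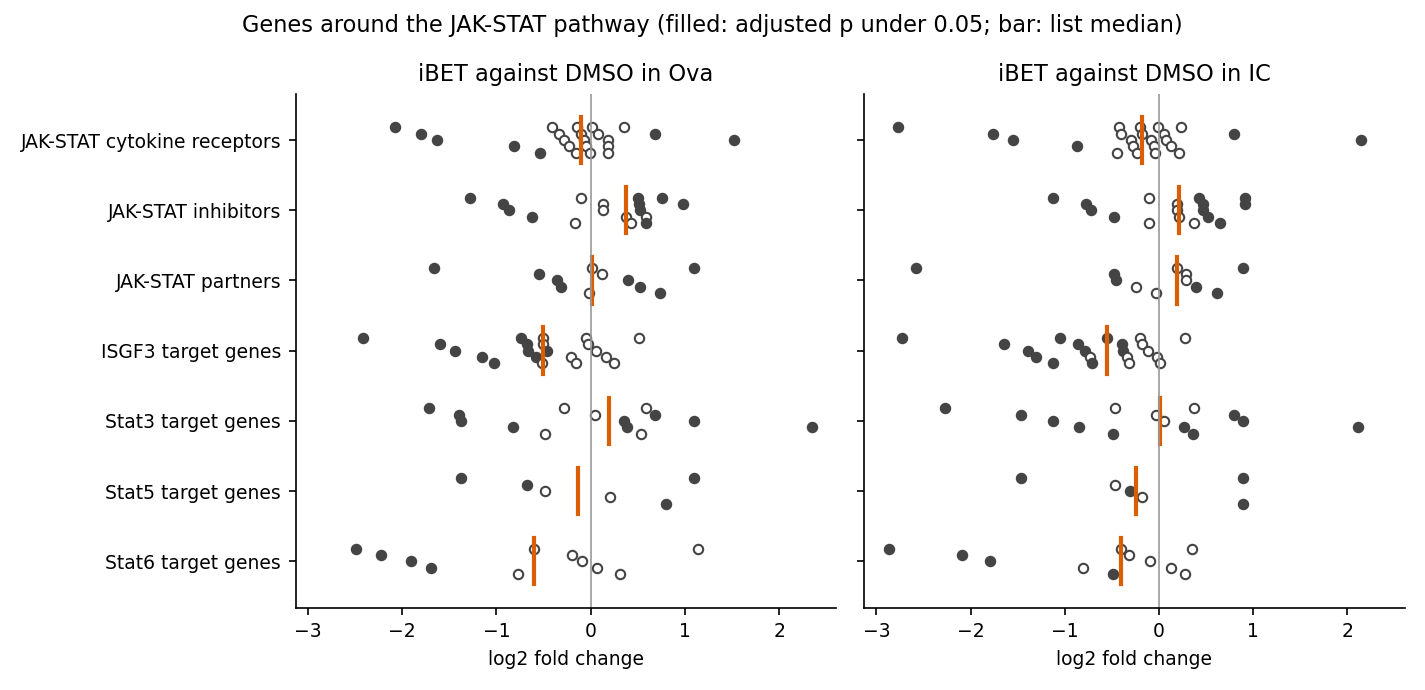
Log2 fold change with iBET of each gene tested in 7 lists, in Ova (left) and IC (right), with filled dots for an adjusted p under 0.05 and an orange bar at the list median. All called ISGF3 and Stat6 target genes lie left of 0, whereas the other lists have filled dots on both sides.

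The Stat3 target genes moved both ways, with 5 of 14 higher and 4 lower in Ova and 5 higher and 5 lower in IC (64.3% and 71.4% called). Of all genes tested, 31.3% and 34.8% were called. Nfil3, a repressor that IL-10 induces, rose from 3.91 to 17.4 CPM in Ova and from 4.16 to 18.2 CPM in IC (2.35 and 2.11, adjusted p = 2.67e-05 and 2.5e-05). Pim1 and Il4ra, given above, were the other rises with the largest change. Myc fell by 1.72 and 2.27 (adjusted p = 0.000235 and 2.61e-05), Bcl3 by 1.4 and 1.12 (adjusted p = 0.00147 and 0.00265) and Ccnd1 by 1.38 and 1.46 (adjusted p = 3.2e-05 and 1.77e-05). Those of Bcl3 held in 1 and 2 of the 3 fits without a mouse (highest adjusted p without mouse B, 0.0798 and 0.0740). The 9 Stat5 target genes, of which 6 were tested, gave 2 higher and 2 lower under each stimulus (66.7% called). The rises were in Pim1 and in Ccnd2 (0.80 and 0.89, adjusted p = 0.00616 and 0.00241). The falls were in Ccnd1 and in Bcl2l1 (-0.68 and -0.31, adjusted p = 0.000616 and 0.0437), the latter call in IC holding in 4 of the 12 fits without 1 library (highest 0.179, without mouse C's iBET IC library). The calls of Ccnd2 held in 1 and 2 of the 3 fits without a mouse (highest without mouse A, 0.113 and 0.0619). The exons of Pim1, Bcl3, Ccnd1 and Ccnd2, like those of Kpnb1, Oasl1 and Irf7, overlap those of a gene on the other strand. Several of these targets sit in more than 1 list, so the lists are not separate evidence.

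Of the 16 Stat6 target genes, which mark macrophages exposed to IL-4, 11 were tested, none rose and 4 fell in each stimulus (list medians -0.60 and -0.40). That share, 36.4%, was near the 31.3% and 34.8% of all genes called in either direction. All calls of the list were falls, and 14.2% of all genes tested in Ova and 15.8% in IC were called lower. Without mouse B, 1 fell in Ova and 2 in IC, and with mouse as a block or 1 surrogate variable 1 rose in IC. Egr2 fell from 16.2 to 2.68 CPM in Ova and from 19.7 to 2.60 CPM in IC (-2.49 and -2.87, SE 0.41 and 0.40, adjusted p = 0.000808 and 0.000210). Pparg, the lipid-sensing nuclear receptor gene, fell from 66.4 to 14 CPM and from 59.1 to 13.7 CPM (-2.23 and -2.09, adjusted p = 1.39e-05 and 1.74e-05). Klf4 fell by 0.49 in IC (SE 0.13 with adjusted p = 0.0122), which no longer passed once the iBET IC library of mouse B was left out (0.0583). Mrc1, the most highly counted of the list, had 153 and 161 CPM in DMSO Ova and iBET Ova (0.07, SE 0.11 with adjusted p = 0.658). The call of Egr2 in Ova was lost without mouse B (0.0609), as was that of Klf4 in IC (0.102). That of Klf4 in IC held in only 1 of the 3 fits without a mouse.

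The genes whose log2 CPM followed that of a member most closely over the 12 libraries were looked up for the 3 members with the largest range of group means among those with a mean count of at least 50 (Stat4 had fewer), among 9427 candidates. Those most like Stat2 were Ski (Pearson r = 0.989), Coq9 (0.986) and Hexim1 (0.985). Those most like Stat3 were Galnt11 (0.992), Ahcyl2 (0.983) and Natd1 (0.978), and those most like Stat5a were Rnf24 (0.967), Mtf1 (0.964) and Tnpo1 (0.960). These are descriptions over libraries that share the 2 levels of the drug. That alone gives high r to pairs of genes that the drug moves in the same direction.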

How the data were processed

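The labels have BMDMs sorted into lysis buffer, whereas the study's methods have them lysed in culture. Total RNA libraries were made by the authors with a SMARTer pico input kit, which the methods, but not the labels, call stranded. Per the labels and the study's methods, the authors trimmed reads with Trim Galore after FastQC, aligned them to mm10 with HISAT2 and assigned them to genes with featureCounts. The deposited counts per gene symbol were used for all main results. Which annotation was used, whether the counting used strand, and how multiply aligned reads were handled are not given in the sources used here. The second deposited table holds a normalised signal, which matched the counts of a library over its DESeq2 size factor (largest relative gap 4.89e-15).

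Counts were fitted in edgeR 4.0.16 (R 4.3.3) as 1 quasi-likelihood model over the 12 libraries, after filterByExpr (minimum count 10, 11468 genes kept) and TMM scaling, with 5 contrasts and no block. P-values are two-sided and adjusted over all genes tested by Benjamini-Hochberg, with genes below 0.05 counted as called. SE is the absolute log2 change over the square root of F. Exon lengths and positions are from GENCODE on GRCm38/mm10. The libraries of a group came from 3 mice, and the main fit held no term for mouse. Its p-values thus rest on the spread of libraries within groups, not on that of the drug effect within animals. Same-mouse libraries (18 pairs, paired by the labels' animal) had deviations from the group means with r between -0.07 and 0.54 (median 0.26), against a median of -0.13 for other pairs. The deviations of a group cancel over its mice. Positive values for same-mouse pairs therefore push those of other pairs below them, so the second median is not a separate baseline. No 2 libraries were alike (at least 13711 genes differed in every pair).

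The 9 members and all lists were chosen with earlier results of these data known. Genes of the lists were named by a rule: the up to 3 largest rises and 3 largest falls called per list and contrast, with a mean count of at least 50. Nab2, Irf7, Oas3 and Mrc1 were named after their values were seen. Alternatives were DESeq2 1.42.0, its size factors, no filter, a minimum of 10 counts per library throughout, a mouse block with either tool, 1 surrogate variable (sva 3.50.0), fits of only the groups compared, the deposited signal in limma 3.58.1 (log2, pseudocount 1), omission of Rn45s, and omission of each library and mouse. The scripts were tested on simulated data.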

Additional observations from a re-analysis of the deposited data

How the results depend on the processing

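The direction and call of Stat2 and Stat3 with iBET held under all 25 alternatives. Fitting mouse as a block changed no call among the 9 genes in edgeR (6 called in each iBET contrast, 0 in the others); it raised the count over all genes from 140 to 315 for IC in DMSO and from 40 to 85 for IC in iBET, and gave Tyk2 0.02 for IC in DMSO. The number of the 9 called, without 1 library or mouse, ranged from 2 to 7 in Ova and from 3 to 7 in IC. Without 1 library or mouse, the number of pathway genes called ranged from 8 to 25 in Ova, from 12 to 24 in IC, and from 0 to 3 for IC against Ova in either arm. For IC against Ova it was also 0 in DMSO with the compared groups alone, and 0 in iBET with at least 10 counts in every library or in limma on the deposited signal; the cause was not tested. The near-zero change of Tyk2 with IC in DMSO turned to 0.00397 in DESeq2, 0.0179 with mouse as a block, 0.0266 with both, 0.00341 with 1 surrogate variable, 0.0132 with the compared groups alone and 0.137 in limma. Other turns of direction came from leaving out libraries or mice, in values that were not called. For IC in DMSO the log2 change then ranged from -0.079 to 0.089 for Stat3, from -0.071 to 0.53 for Stat4 and from -0.24 to 0.17 for Tyk2. For IC in iBET it ranged from -0.15 to 0.073 for Stat3, -0.024 to 0.17 for Stat5a, -0.15 to 0.039 for Stat5b, -0.16 to 0.0085 for Stat6, -0.0076 to 0.059 for Jak1 and -0.21 to 0.028 for Tyk2. For iBET in Ova it ranged from -0.97 to 0.033 for Stat4 and from -0.0088 to 0.50 for Tyk2. For the interaction it ranged from -0.13 to 0.078 for Stat2, -0.24 to 0.11 for Stat3, -0.21 to 0.0041 for Stat5a, -0.061 to 0.018 for Jak1 and -0.35 to 0.18 for Tyk2. Stat4 could not be tested with at least 10 counts in every library, since it had 5 in 1 library, and that library's 1.77 M counts outside Rn45s limit every value of the DMSO Ova group.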
